A study of Mus musculus with 16 samples.

Results

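The genes described here are 34 genes of cholesterol and fatty acid synthesis in LKR10 cells, taken by symbol from a list of pathway members. All 34 were among the 12321 genes of the deposited expression table, and all 34 passed the filter on low values that left 12320 genes for testing. As deposited, all but 1 of the 12321 genes had at least 1 CPM in 8 or more libraries, so passing that filter says little. The sterol branch had 23 of them, made up of 18 enzymes on the way to cholesterol and 5 genes of sterol sensing and transport. The fatty acid branch had 11, made up of 10 enzymes and the transcription factor gene Srebf1.

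LKR10 is a mouse lung adenocarcinoma line, and the study asked how its gene expression depends on a knockdown of Ankrd35 and on the type of growth. There were 4 groups of 4 RNA-seq libraries: 3D with shAnkrd35, 3D with shGFP, 2D with shAnkrd35 and 2D with shGFP. The 3D cells grew in methylcellulose at 0.5% in complete DMEM, a viscous medium in which cells form colonies without attaching, and the 2D cells grew as monolayers on plastic in DMEM with serum. Cells of all 4 groups carried a pLKO lentiviral vector, a hairpin against green fluorescent protein serving as control, and all had been under puromycin at 4 µg/ml for 48 h with 96 h of growth after it. The labels name neither the hairpin sequences nor separate cultures for the replicates, so a p-value here speaks only to how far libraries differ from each other, which may be technical. All groups come from 1 line.

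Acetyl-CoA feeds both pathways. In sterol synthesis it is condensed to HMG-CoA, passed through mevalonate to farnesyl diphosphate, joined into squalene, closed into lanosterol and trimmed to cholesterol. In fatty acid synthesis it is carboxylated, built into palmitate by fatty acid synthase, and then lengthened by elongases and given double bonds by desaturases. Transcription of both branches is driven by the SREBP factors, of which the product of Srebf2 is known mainly for sterol genes and that of Srebf1 mainly for fatty acid genes. Scap carries SREBP out of the endoplasmic reticulum when sterols are scarce, and Insig1 and Insig2 hold it there when sterols are plentiful.

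Library totals ran between 13.82 and 28.72 M reads. Ankrd35 itself was close to the limit of detection, with 12, 11, 9 and 9 reads in 3D shAnkrd35 libraries against 14, 17, 16 and 16 reads in 3D shGFP libraries, and 2, 6, 7 and 1 reads in 2D shAnkrd35 libraries against 2, 3, 6 and 7 reads in 2D shGFP libraries. In CPM (reads for every 1 M reads of effective library size) that was 0.501 ± 0.0929 against 0.597 ± 0.0546 in 3D (exact permutation test on both sides, p = 0.143) and 0.187 ± 0.137 against 0.219 ± 0.124 in 2D (p = 0.657; SD, n = 4, smallest possible p 0.029). The knockdown was thus not seen at this depth, and shAnkrd35 below means the libraries labelled so. Replicate 1 of 2D shAnkrd35 stood apart from the other libraries of its group on the second principal component (9.33, against 21.84 to 32.33), and results that change without it are given with that value. The epithelial keratin genes Krt8 and Krt18 averaged 1760 to 4140 CPM in the groups and Cdh1 442 to 518 CPM. Epcam averaged 0.406 to 2.58 CPM. The lung genes Nkx2-1 and Sftpc were not among the 12321 genes with values, so their levels are not known.

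The most abundant members per length were of the fatty acid branch. On the scale of mean CPM per kb of annotated exon over the 16 libraries, the stearoyl-CoA desaturase gene Scd2 had 343, its paralog Scd1 86.1, Acly 68.6, Fasn 67.9, Fads1 67.0, Srebf1 64.5, Elovl5 53.9 and Fads2 40.8. Srebf2, with 78.0, was the gene of the sterol branch in that range. The order changed with the group, as Hsd17b7 had 14.9 in 3D shAnkrd35, 44.4 in 3D shGFP (where Fads2 had 35.4), 9.1 in 2D shAnkrd35 and 14.6 in 2D shGFP. On the same mean, the sterol enzymes lay lower, between 21.4 for Sqle and 0.426 for Fdps, with Hsd17b7 at 20.8, Hmgcs1 at 20.2 and Cyp51 at 18.2 near the top. In the fatty acid branch Acaca (9.05), Elovl6 (8.42) and Acss2 (0.928) were the lowest. Reads of the closely related Scd1 and Scd2 can be split between them by the counting, so their levels are less certain than the others.

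The level of Fdps rests on 21 to 74 reads a library. On the mm10 annotation 26.7% of its exonic bases belong as well to Gm43738 on the same strand, and Tm7sf2 shares 12.1% of its bases with Vps51 on the same strand. Of Fdft1, 18.3% lies over exons of Ctsb on the other strand, a gene at a mean of 445 CPM. Whether counting used strand is not stated, so values of these 3 members are less certain. In bulk RNA, fewer cells of a kind and less RNA per cell cannot be told apart.

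The promoters of 5 members are shown because these genes carry the hairpin comparisons: Hsd17b7 and Hmgcs1 fell most in 3D, Acat2 and Nsdhl rose most in 2D among sterol members with an entry in the promoter table, and Insig1 had the smallest p for a difference between the hairpin effects. Each is the RefSeq window of 250 bases before and 50 after the start of transcription on GRCm38.p6 (the assembly of mm10), 5′ to 3′ along the gene. Capitals mark the letters TCACNCC (a core of the sterol response element), CCAAT (the box bound by NF-Y) and GGGCGG (the GC box bound by Sp1) on either strand; NF-Y and Sp1 are known partners of SREBP at such promoters. The windows are chr1:169969156-169969455 on the minus strand for Hsd17b7, chr13:119690101-119690400 on the plus strand for Hmgcs1, chr5:28071162-28071461 on the plus strand for Insig1, chr17:12960676-12960975 on the minus strand for Acat2 and chrX:72918271-72918570 on the plus strand for Nsdhl.
Hsd17b7: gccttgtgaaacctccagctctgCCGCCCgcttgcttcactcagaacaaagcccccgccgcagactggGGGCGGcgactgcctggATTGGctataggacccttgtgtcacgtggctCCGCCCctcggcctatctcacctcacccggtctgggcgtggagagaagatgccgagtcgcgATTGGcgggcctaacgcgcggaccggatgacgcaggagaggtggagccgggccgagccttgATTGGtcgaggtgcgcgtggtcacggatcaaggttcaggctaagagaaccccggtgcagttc
Hmgcs1: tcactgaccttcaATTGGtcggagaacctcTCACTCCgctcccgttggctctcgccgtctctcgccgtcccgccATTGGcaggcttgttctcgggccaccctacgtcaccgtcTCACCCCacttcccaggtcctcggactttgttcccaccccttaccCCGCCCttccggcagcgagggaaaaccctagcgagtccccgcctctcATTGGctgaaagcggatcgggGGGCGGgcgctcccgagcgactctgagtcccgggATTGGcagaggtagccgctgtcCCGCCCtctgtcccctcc
Insig1: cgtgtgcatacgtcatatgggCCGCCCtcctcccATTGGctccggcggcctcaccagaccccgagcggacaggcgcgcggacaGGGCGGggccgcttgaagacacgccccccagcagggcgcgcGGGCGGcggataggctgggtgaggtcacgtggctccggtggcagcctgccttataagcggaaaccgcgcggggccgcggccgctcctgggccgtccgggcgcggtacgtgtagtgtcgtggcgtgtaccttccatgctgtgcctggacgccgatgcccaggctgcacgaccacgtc
Acat2: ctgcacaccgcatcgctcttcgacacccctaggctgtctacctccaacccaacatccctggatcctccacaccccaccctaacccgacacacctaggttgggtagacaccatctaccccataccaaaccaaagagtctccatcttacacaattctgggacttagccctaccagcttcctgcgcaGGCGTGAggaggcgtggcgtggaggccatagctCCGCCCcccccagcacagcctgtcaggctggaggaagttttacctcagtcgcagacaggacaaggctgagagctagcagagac
Nsdhl: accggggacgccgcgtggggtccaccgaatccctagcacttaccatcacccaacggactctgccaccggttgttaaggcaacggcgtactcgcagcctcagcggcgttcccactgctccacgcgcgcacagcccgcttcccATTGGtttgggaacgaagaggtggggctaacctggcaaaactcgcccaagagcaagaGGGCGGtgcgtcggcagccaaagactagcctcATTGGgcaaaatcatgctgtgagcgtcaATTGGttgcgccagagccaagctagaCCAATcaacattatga

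The Hmgcs1 window held TCACNCC 2 times, CCAAT 4 times and GGGCGG 3 times. That of Acat2 held TCACNCC 1 time, GGGCGG 1 time and no CCAAT, while those of Hsd17b7, Insig1 and Nsdhl held 3, 1 and 4 CCAAT letters, 3, 3 and 1 GGGCGG letters and no TCACNCC. Of the 34 members, 27 had windows in the table, 25 windows for 19 sterol genes and 10 windows for 8 fatty acid genes. CCAAT was in 17 of the 25 sterol windows and 6 of the 10 fatty acid windows, where 37.4% of all 32851 promoters of that length held it. GGGCGG was in 21 of the sterol and 5 of the fatty acid windows (35.7% of all promoters), and TCACNCC in 6 of the sterol windows, those of Hmgcs1, Msmo1, Acat2, Insig2 and Srebf2, and in 0 fatty acid windows (15.6% of all promoters). A match describes letters and not a bound site, and no motif of the 3 is contained in another.

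In 3D, part of the sterol branch was lower in shAnkrd35 than in shGFP libraries. Of its 23 genes 9 fell and 0 rose at an adjusted p under 0.05 (limma, Benjamini-Hochberg over all genes), where 14.6% of all genes tested fell and 15.0% rose. At an unadjusted p under 0.05, 11 fell and 1 rose, and with limma voom on the recovered reads 9 fell and 0 rose. With library medians made equal or quantiles normalized, 9 fell and 1 rose, and with the trend on GC content and length removed, 11 fell and 1 rose. The median log2 fold change of the branch was -0.15, against 0.00 over all genes, and 20 of its 23 folds were negative. The groups did not overlap for 12 of the 23 genes downward and 1 upward (19.4% and 18.8% of all genes). Across genes, which are not independent replicates, folds in 3D went with GC content at a Spearman's rho of 0.22.

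The deepest fall was that of Hsd17b7, a ketosteroid reductase that works in the removal of methyl groups from lanosterol and is also known to reduce estrone. It had 73.9, 76.5, 74.3 and 79.6 CPM in 3D shAnkrd35 libraries, against 229, 218, 231 and 230 CPM in 3D shGFP libraries. No library of 1 group came near the other, and the log2 fold change was -1.57 ± 0.05 (SE, adjusted p = 3.04e-12). Hmgcs1, the cytosolic HMG-CoA synthase at the entry to the mevalonate pathway, had 77.5, 73.2, 69.7 and 86.2 CPM in 3D shAnkrd35 libraries, against 118, 124, 127 and 127 CPM in 3D shGFP libraries. The groups were separate, at -0.70 ± 0.10 (adjusted p = 6.43e-05). Dhcr7, the reductase of a last step to cholesterol, had 18.3, 18.9, 18.4 and 19.2 CPM with shAnkrd35, against 23.5, 25.4, 23.1 and 23.7 CPM with shGFP, again without overlap (-0.36 ± 0.06, adjusted p = 0.000321).

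Smaller falls in 3D came at other steps of the pathway. They were those of Mvd, the mevalonate diphosphate decarboxylase (-0.33), Insig2 (-0.28), Insig1 (-0.29), Msmo1, which oxidises methylsterols (-0.26), Sqle, the squalene epoxidase (-0.21), and Cyp51, the lanosterol demethylase (-0.18). The groups did not overlap for any of these 6. The other 14 sterol genes did not pass the test. Among them Acat2 averaged 33.5 ± 1.44 CPM in shAnkrd35 and 34.6 ± 0.873 CPM in shGFP libraries, Mvk 25.8 ± 2.34 and 25.2 ± 1.18 CPM, and Fdft1 39.5 ± 1.06 and 40.4 ± 0.691 CPM (SD, n = 4 each). By library Acat2 had 33.0, 34.3, 31.8 and 35.0 CPM with shAnkrd35, against 35.6, 34.4, 33.5 and 34.9 CPM with shGFP. Sc5d had 47.3, 46.4, 45.5 and 54.0 CPM with shAnkrd35, against 43.5, 44.7, 46.2 and 44.3 CPM with shGFP.

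The fatty acid branch in 3D moved both ways, with 3 of 11 genes higher and 3 lower in shAnkrd35 than in shGFP libraries where 15.0% of all genes tested were higher and 14.6% lower. The median was 0.08, against 0.00 over all genes, and with library medians made equal 3 were higher and 2 lower. With the trend on GC content and length removed the median was 0.01. The groups did not overlap for 5 of the 11 genes upward and 4 downward (18.8% and 19.4% of all genes). The 3 that rose supply acetyl-CoA or desaturate long chains. Acly, which splits citrate into acetyl-CoA in the cytosol, had 351, 344, 358 and 382 CPM in 3D shAnkrd35 libraries, against 298, 280, 299 and 302 CPM in 3D shGFP libraries. All 4 shAnkrd35 values were above all shGFP values (0.28 ± 0.05, adjusted p = 0.000194). Acss2, which makes acetyl-CoA from acetate, had 13.2, 13.2, 13.8 and 13.0 CPM with shAnkrd35, against 11.2, 11.1, 10.5 and 11.7 CPM with shGFP. The groups were apart (0.26 ± 0.08, adjusted p = 0.0271), though leaving out 1 of 6 libraries of 3D brought the adjusted p to 0.0502 to 0.0824. Fads2, a desaturase of polyunsaturated fatty acids, had 143, 132, 132 and 139 CPM with shAnkrd35, against 120, 115, 119 and 112 CPM with shGFP, without overlap (0.23 ± 0.05, adjusted p = 0.00385).

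The 3 that fell in 3D were elongases and a desaturase. Elovl5, the elongase of polyunsaturated chains, had 138, 141, 143 and 147 CPM in 3D shAnkrd35 libraries, against 209, 218, 218 and 217 CPM in 3D shGFP libraries. The gap between the groups was many times their spread (-0.60 ± 0.03, adjusted p = 1.88e-09). Elovl6, which lengthens palmitate to stearate, had 54.9, 58.2, 48.8 and 65.8 CPM with shAnkrd35, against 73.7, 70.4, 76.8 and 78.7 CPM with shGFP. The groups did not overlap but spread widely (-0.40 ± 0.14, adjusted p = 0.0418), and the adjusted p was 0.0523 to 0.121 when replicate 3 of 2D shGFP, any 3D shGFP library or any 3D shAnkrd35 library but replicate 4 was left out. Scd2 had 1370, 1390, 1350 and 1430 CPM with shAnkrd35, against 1570, 1490, 1560 and 1580 CPM with shGFP (-0.16 ± 0.04, adjusted p = 0.00692, or 0.0636 once library medians were made equal). Fasn, the fatty acid synthase, averaged 700 ± 38.0 CPM in shAnkrd35 and 627 ± 27.0 CPM in shGFP libraries, and Acaca, the acetyl-CoA carboxylase, 137 ± 14.0 and 129 ± 9.32 CPM. Neither passed the test. For Fasn (0.16) every shAnkrd35 library was still above every shGFP library, as for Fads1 (0.13), which did not pass either.

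In 2D, most of the sterol branch was higher in shAnkrd35 than in shGFP libraries. Of the 23 genes 13 rose and 4 fell, where 29.0% of all genes tested rose and 28.8% fell, and the median log2 fold change was 0.27 against 0.01 over all genes. Among the 18 enzymes 12 rose and 3 fell. The groups did not overlap for 13 of the 23 genes upward and 3 downward (22.3% and 17.5% of all genes). Without replicate 1 of 2D shAnkrd35 13 rose and 5 fell, with a median of 0.25.

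Acat2, the cytosolic thiolase that opens the pathway, had 57.7, 63.2, 71.1 and 62.2 CPM in 2D shAnkrd35 libraries, against 38.8, 33.1, 34.3 and 34.3 CPM in 2D shGFP libraries. Every shAnkrd35 library was above every shGFP library (0.85 ± 0.06, adjusted p = 1.37e-08). Nsdhl, a sterol dehydrogenase of the demethylation of lanosterol, had 29.9, 33.9, 31.7 and 33.9 CPM with shAnkrd35, against 20.7, 18.6, 17.4 and 19.2 CPM with shGFP. The groups were well separated (0.77 ± 0.07, adjusted p = 2.01e-07). Fdps, the farnesyl diphosphate synthase, had 2.21, 2.57, 3.41 and 2.62 CPM with shAnkrd35, against 1.29, 1.62, 0.999 and 1.57 CPM with shGFP, the highest fold of the branch but on few reads (0.94 ± 0.19, adjusted p = 0.000614).

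The other 10 sterol genes that rose in 2D came from every stage of the pathway. They were Tm7sf2, a sterol reductase (0.59), Insig1 (0.58), Pmvk, the phosphomevalonate kinase (0.57), Fdft1, the squalene synthase (0.43), Ebp, a sterol isomerase (0.40), Mvk, the mevalonate kinase (0.39), Cyp51 (0.38), Dhcr7 (0.38), Msmo1 (0.27) and Lss, which closes squalene epoxide into lanosterol (0.21). Hmgcs1 did not pass the test in 2D, with 86.8 ± 10.1 CPM in shAnkrd35 and 84.3 ± 12.5 CPM in shGFP libraries, nor did Idi1, the isopentenyl diphosphate isomerase, with 9.88 ± 1.69 and 9.76 ± 2.98 CPM, or Mvd, with 22 ± 1.45 and 22.6 ± 0.534 CPM.

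The sterol genes that fell in 2D were Hsd17b7, Sc5d, Insig2 and Sqle. Hsd17b7 had 46.2, 42.6, 48.2 and 48.8 CPM in 2D shAnkrd35 libraries, against 75.6, 78.3, 75.5 and 68.7 CPM in 2D shGFP libraries. It was thus lower without overlap in 2D as in 3D (-0.68 ± 0.05, adjusted p = 1.38e-08). Insig2 had 34.1, 31.6, 34.1 and 35.9 CPM with shAnkrd35, against 41.8, 43.7, 38.3 and 39.6 CPM with shGFP (-0.27 ± 0.06, adjusted p = 0.00101). Sqle had 138, 130, 133 and 136 CPM with shAnkrd35, against 145, 140, 145 and 156 CPM with shGFP. Its groups were apart by little (-0.13 ± 0.05, adjusted p = 0.0222), and without replicate 4 of 2D shGFP the adjusted p was 0.0891, without replicate 2 or 3 of 2D shAnkrd35 0.0643 or 0.0507. Nor did Sqle pass in 2D with library medians made equal (-0.09, adjusted p = 0.15), after quantile normalization (-0.07, 0.149) or in a fit of the 2 groups alone (0.0585). Sc5d, the sterol desaturase, had 63.8, 45.2, 44.2 and 50.1 CPM with shAnkrd35, against 55.1, 67.5, 61.7 and 69.5 CPM with shGFP. It fell with overlapping groups (-0.33 ± 0.10, adjusted p = 0.00924), and with the trend on GC content and length removed its adjusted p was 0.115.

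Of the 11 fatty acid genes, 6 rose and 2 fell in 2D, where 29.0% of all genes tested rose and 28.8% fell, with a median of 0.20 against 0.01 over all genes. Fads2 had 190, 172, 166 and 160 CPM in 2D shAnkrd35 libraries, against 120, 106, 112 and 111 CPM in 2D shGFP libraries. All shAnkrd35 values were higher (0.61 ± 0.05, adjusted p = 8.81e-08). Acly had 509, 461, 454 and 463 CPM with shAnkrd35, against 330, 309, 330 and 325 CPM with shGFP (0.54 ± 0.05, adjusted p = 7.1e-08). Acss2 had 8.56, 7.13, 7.37 and 7.33 CPM with shAnkrd35, against 5.80, 5.24, 6.47 and 5.22 CPM with shGFP (0.42 ± 0.08, adjusted p = 0.000487). In both genes replicate 1 was the highest shAnkrd35 library, and the other 3 were above all shGFP libraries too.

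Scd2 (0.31), Fads1, the other desaturase of polyunsaturated chains (0.22), and Srebf1 (0.20) also rose in 2D. Scd2 had 2690, 2470, 2520 and 2460 CPM in 2D shAnkrd35 libraries, against 2090, 1920, 2080 and 2070 CPM in 2D shGFP libraries. Elovl5 had 188, 184, 187 and 185 CPM in 2D shAnkrd35 libraries, against 218, 211, 220 and 214 CPM in 2D shGFP libraries, lower without overlap as in 3D (-0.21 ± 0.03, adjusted p = 6.04e-05). Elovl6 fell too, with overlapping groups (-0.57 ± 0.14, adjusted p = 0.0028). Folds in 2D went with the GC content of genes, at a Spearman's rho of 0.40 across genes, which are not independent replicates. With the trend on GC content and length removed, 4 fatty acid genes rose and 2 fell, the median was 0.08, and Srebf1 (0.08) and Fads1 (0.11) no longer passed, while the sterol branch had 14 higher, 5 lower and a median of 0.27.

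**Figure D1:**
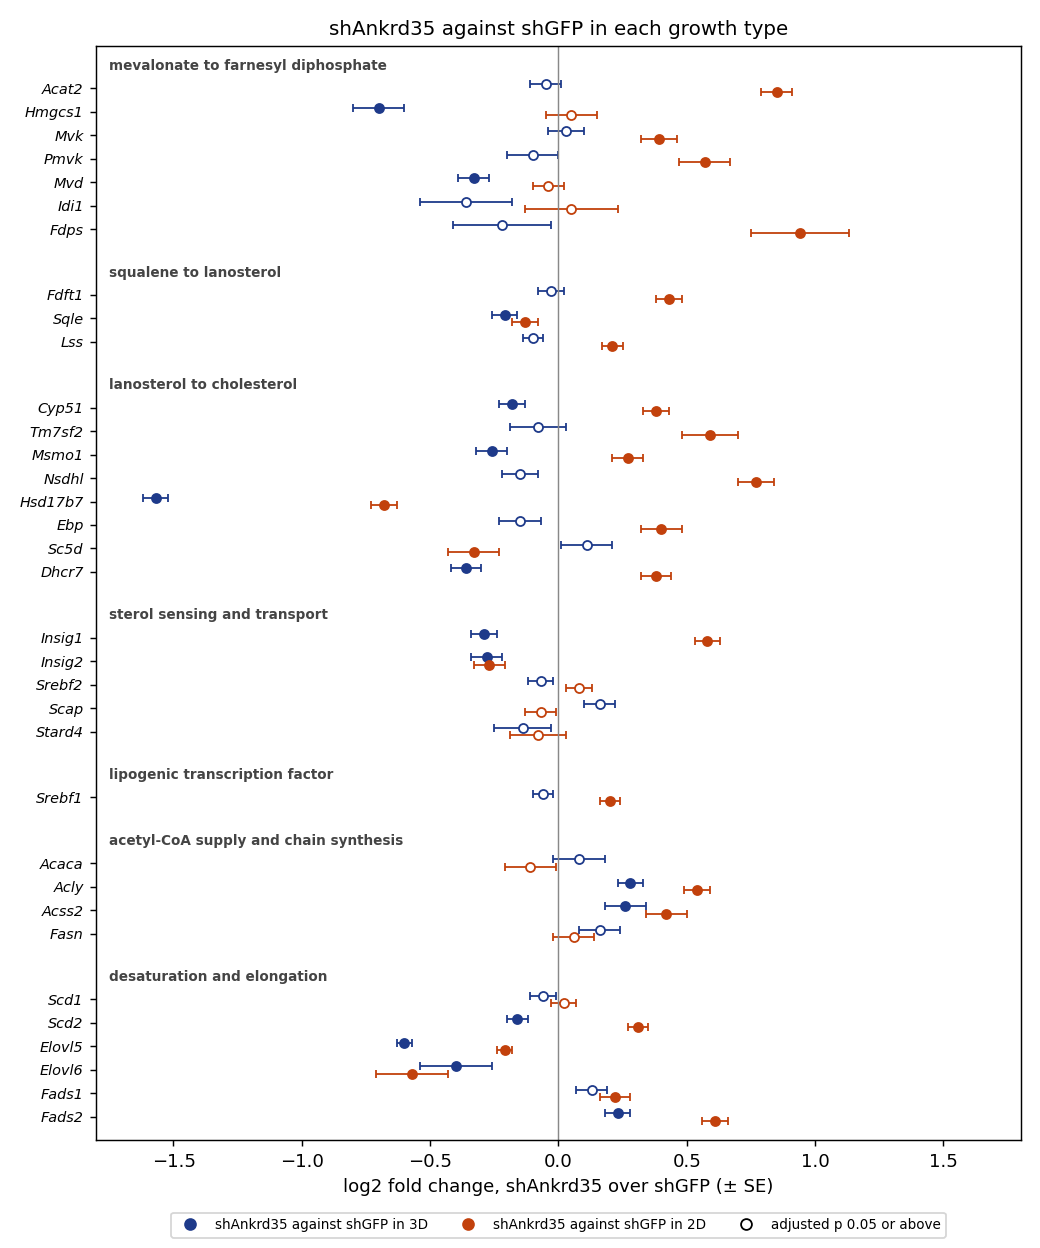
The log2 fold change of shAnkrd35 over shGFP for all 34 genes, in 3D (blue) and in 2D (orange), with SE bars; filled points passed an adjusted p of 0.05, and rows are grouped by step. In the sterol enzymes most orange points lie right of 0 and blue points at or left of it, with Hsd17b7 left in both (-1.57 in 3D, -0.68 in 2D), while Acly, Acss2 and Fads2 lie right in both.

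The hairpin comparisons of 3D and 2D share no library, so their members can be set side by side. In the sterol branch 7 of 23 genes passed in both: 3 were lower in both (Hsd17b7, Insig2 and, by the less certain call in 2D, Sqle) and 4 were lower in 3D and higher in 2D (Cyp51, Msmo1, Dhcr7 and Insig1). In the fatty acid branch 6 of 11 passed in both: Acly, Acss2 and Fads2 were higher in both, Elovl5 and Elovl6 lower in both, and Scd2 lower in 3D and higher in 2D. Over all genes 2415 passed in both, 1117 of them higher in both, 944 lower in both and 205 lower in 3D and higher in 2D.

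**Figure D2:**
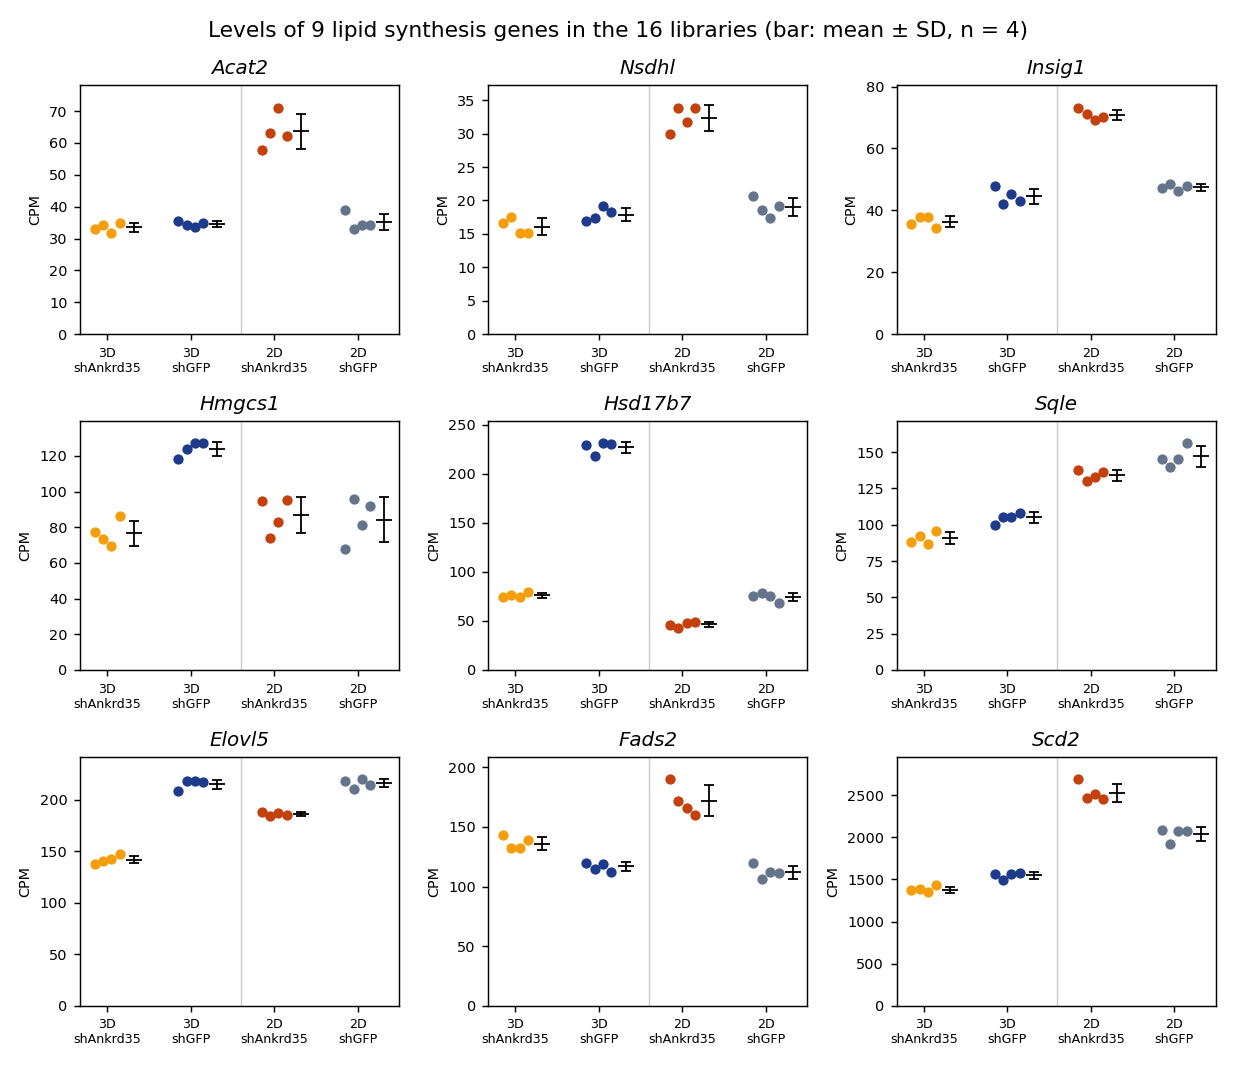
CPM of 9 genes in each of the 16 libraries, with the mean ± SD of each group (n = 4) beside its points; every axis starts at 0. The 2D shAnkrd35 libraries stand above the other 3 groups for Acat2, Nsdhl and Insig1, the 3D shGFP libraries above the other 3 for Hmgcs1 and Hsd17b7, and the 3D shAnkrd35 libraries below the other 3 for Elovl5.

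The difference between the hairpin effects was tested directly, as the effect in 3D minus that in 2D. In the sterol branch 16 of 23 genes had a lower effect in 3D than in 2D and 2 a higher one, where 18.6% and 17.1% of all genes tested did, and the median difference was -0.54 log2 units against 0.00 over all genes. Of the 11 fatty acid genes, 5 had a lower effect in 3D and 0 a higher one, also at an unadjusted p under 0.05 and with voom (0 in each), and the median was -0.16. Without replicate 1 of 2D shAnkrd35 the sterol branch had 16 lower and 2 higher (median -0.52), and the fatty acid branch 5 lower and 1 higher (-0.10).

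By p, Insig1, Hsd17b7 and Acat2 led the sterol branch. The effect of the hairpin on Insig1 was -0.29 in 3D and 0.58 in 2D, a difference of -0.87 ± 0.07 (adjusted p = 2.6e-07). For Hsd17b7 it was -1.57 in 3D and -0.68 in 2D, so the fall was larger in 3D (-0.89 ± 0.07, adjusted p = 3.13e-07). Acat2 did not pass in 3D and rose by 0.85 in 2D (-0.90 ± 0.09, adjusted p = 2.56e-06). The other sterol genes with a lower effect in 3D were Fdps (-1.17), Nsdhl (-0.92), Hmgcs1 (-0.75), Dhcr7 (-0.74), Pmvk (-0.67), Tm7sf2 (-0.66), Cyp51 (-0.56), Ebp (-0.55), Msmo1 (-0.54), Fdft1 (-0.46), Mvk (-0.36), Lss (-0.30) and Mvd (-0.29). With the trend on GC content and length removed, Mvk (-0.18, adjusted p = 0.105) and Mvd (-0.09, adjusted p = 0.558) did not pass. The members with a higher effect in 3D were Sc5d (0.44 ± 0.14, adjusted p = 0.0234) and Scap (0.23 ± 0.09, adjusted p = 0.0481); that of Sc5d had an adjusted p of 0.0513 to 0.0536 without replicate 2 or 3 of 2D shAnkrd35, replicate 4 of 2D shGFP or replicate 4 of 3D shAnkrd35, and that of Scap 0.055 to 0.107 when any 1 of 13 libraries was left out and 0.0521 to 0.0934 under 6 other alternatives.

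Among fatty acid genes Scd2 had the smallest p of the difference (-0.48 ± 0.06, adjusted p = 2.41e-05), with an effect of -0.16 in 3D and 0.31 in 2D. Elovl5 followed (-0.38 ± 0.05, adjusted p = 2.64e-05), with effects of -0.60 in 3D and -0.21 in 2D, and then Fads2 (-0.39 ± 0.08, adjusted p = 0.00115), with 0.23 in 3D and 0.61 in 2D. Acly (-0.26) and Srebf1 (-0.26) also had a lower effect in 3D. The difference did not pass the test for Acaca, Acss2, Fasn, Scd1, Elovl6 or Fads1, nor, in the sterol branch, for Idi1, Sqle, Insig2, Srebf2 or Stard4, a gene of a sterol carrier protein.

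**Figure D3:**
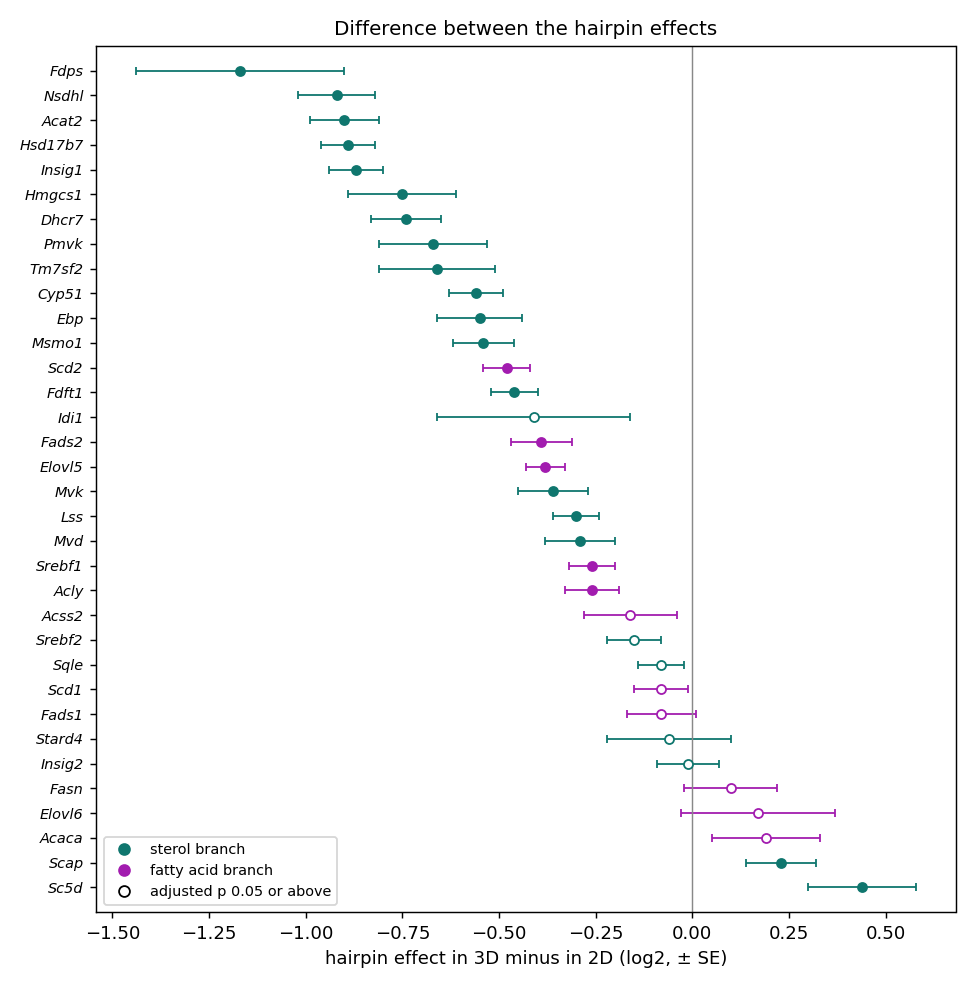
Difference between the hairpin effects (3D minus 2D, log2 units) for the 34 genes in order of size, with SE bars; sterol branch in green, fatty acid branch in purple, and open points for an adjusted p of 0.05 or above. Fdps at -1.17 and Nsdhl at -0.92 lie farthest left, and Sc5d at 0.44 farthest right.

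Growth in 3D went with lower levels of most of the 34 genes when the cells carried shAnkrd35. Of the 23 sterol genes 16 fell and 2 rose in 3D against 2D with shAnkrd35, where 36.0% of all genes tested fell and 34.4% rose, and the median was -0.67 against -0.02 over all genes. Of the 11 fatty acid genes 9 fell and 2 rose, with a median of -0.33. Groups did not overlap for 15 sterol and 8 fatty acid genes downward and for 2 of each branch upward (29.3% and 29.9% of all genes). Across genes, folds here also went with GC content at a Spearman's rho of -0.47. With the trend on GC content and length removed the medians were -0.47 for the sterol and -0.18 for the fatty acid branch, with 6 fatty acid genes lower and 2 higher.

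Nsdhl had 16.6, 17.6, 15.1 and 15.1 CPM in 3D shAnkrd35 libraries, against the 29.9 to 33.9 CPM given above in 2D shAnkrd35 libraries, a fall without overlap (-1.0 ± 0.07, adjusted p = 3.36e-09). Insig1, an anchor of SREBP in the endoplasmic reticulum and itself a known SREBP target, had 35.5, 37.8, 37.8 and 34.2 CPM in 3D, against 73.2, 71.2, 69.3 and 70.2 CPM in 2D (-0.97 ± 0.05, adjusted p = 3.98e-11). Cyp51 had 58.7, 59.7, 52.6 and 61.4 CPM in 3D, against 118, 109, 110 and 111 CPM in 2D (-0.95 ± 0.05, adjusted p = 8.38e-11). No 3D library reached the level of any 2D library in these genes. Acat2 (-0.92), Fdps (-0.88), Mvd (-0.85), Mvk (-0.80), Fdft1 (-0.74), Tm7sf2 (-0.73), Msmo1 (-0.72), Pmvk (-0.68), Dhcr7 (-0.67), Lss (-0.62), Srebf2 (-0.61), Sqle (-0.56) and Ebp (-0.35) fell as well; with the trend on GC content and length removed Ebp was at -0.08 (adjusted p = 0.212).

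Hsd17b7 and Idi1 went the other way with shAnkrd35. Hsd17b7 averaged 76.1 ± 2.61 CPM in 3D and 46.4 ± 2.81 CPM in 2D (0.71 ± 0.05, adjusted p = 3.24e-09). Idi1 had 14.5, 16.1, 13.1 and 13.3 CPM in 3D, against 11.2, 8.04, 8.85 and 11.4 CPM in 2D, higher without overlap (0.53 ± 0.18, adjusted p = 0.0132), though with the trend on GC content and length removed it was at 0.06 and did not pass.

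In the fatty acid branch with shAnkrd35, Acss2 averaged 13.3 ± 0.306 CPM in 3D and 7.6 ± 0.650 CPM in 2D (0.81 ± 0.08, adjusted p = 2.81e-07), and Elovl6 averaged 56.9 ± 7.10 CPM in 3D and had 40.3, 26.2, 30.4 and 39.4 CPM in 2D (0.75 ± 0.14, adjusted p = 0.000206). Both rose without overlap. Scd2 averaged 1380 ± 36.3 CPM in 3D and 2530 ± 105 CPM in 2D, from 2690, 2470, 2520 and 2460 CPM in the single 2D libraries (-0.87 ± 0.04, adjusted p = 2.48e-11). Scd1 had 303, 322, 293 and 326 CPM in 3D, against 576, 490, 518 and 531 CPM in 2D (-0.76 ± 0.05, adjusted p = 1.59e-09). Fads1 had 285, 272, 272 and 293 CPM in 3D, against 465, 392, 386 and 377 CPM in 2D (-0.53 ± 0.06, adjusted p = 9.5e-07). In all 3 desaturase genes the 2D libraries were above the 3D libraries. Acly (-0.39), Elovl5 (-0.39), Fads2 (-0.33), Acaca (-0.31), Fasn (-0.26) and Srebf1 (-0.22) fell by less; with the trend on GC content and length removed Fads2 (-0.05), Fasn (-0.09) and Srebf1 (0.06) did not pass, nor after quantile normalization did Fasn (-0.08) and Srebf1 (-0.09).

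With shGFP, growth in 3D split the sterol branch. Of the 23 genes 10 fell and 4 rose in 3D against 2D, where 32.1% of all genes tested fell and 35.2% rose, and the median was -0.08 against 0.03. Of the 11 fatty acid genes 6 fell and 2 rose, with a median of -0.13. Groups did not overlap for 9 sterol and 6 fatty acid genes downward and for 4 and 2 upward (31.6% and 33.3% of all genes). Across genes, folds with shGFP went with GC content at a Spearman's rho of -0.34. After quantile normalization the fatty acid branch had 3 lower and 4 higher (median 0.01), and with the trend on GC content and length removed 5 lower and 4 higher (-0.06).

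Hsd17b7 rose most, with 227 ± 5.67 CPM in 3D and 74.5 ± 4.10 CPM in 2D (1.61 ± 0.05, adjusted p = 5.13e-14). Idi1 had 16.3, 18.3, 19.6 and 18.9 CPM in 3D shGFP libraries, against 6.32, 13.2, 8.57 and 10.9 CPM in 2D shGFP libraries (0.95 ± 0.18, adjusted p = 0.000195). Hmgcs1 had 118 to 127 CPM in 3D, against 68.0, 96.1, 81.3 and 91.7 CPM in 2D (0.57 ± 0.10, adjusted p = 0.000114). None of these 3 overlapped between the growth types, and in Idi1 and Hmgcs1 the 2D values spread more than the 3D values. Ebp rose by 0.20 with an adjusted p of 0.0315, which was 0.192 to 0.2 once library medians were made equal or quantiles normalized and 0.0534 to 0.0881 without replicate 3 or 4 of 2D shGFP or replicate 1, 3 or 4 of 3D shGFP.

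Mvd, Sc5d and Sqle fell most among the sterol genes. Mvd had 14.7, 14.5, 15.9 and 16 CPM in 3D shGFP libraries, against 23.0, 21.9, 22.4 and 23.1 CPM in 2D shGFP libraries (-0.56 ± 0.06, adjusted p = 7.83e-07). Sc5d had 43.5, 44.7, 46.2 and 44.3 CPM in 3D, against 55.1, 67.5, 61.7 and 69.5 CPM in 2D (-0.50 ± 0.10, adjusted p = 0.0003). Sqle had 99.6, 105, 105 and 108 CPM in 3D, against the 140 to 156 CPM given above in 2D (-0.49 ± 0.05, adjusted p = 6.98e-08). Each was lower in every 3D library than in every 2D library. Srebf2 (-0.46), Mvk (-0.44), Cyp51 (-0.39), Lss (-0.31), Fdft1 (-0.28), Scap (-0.22) and Msmo1 (-0.18) also fell. Scap was at 0.07 and did not pass with the trend on GC content and length removed, and without replicate 4 of 2D shGFP the adjusted p of Msmo1 was 0.0503. Several genes that fell steeply with shAnkrd35 did not pass with shGFP: Acat2 averaged 34.6 ± 0.873 CPM in 3D and 35.1 ± 2.51 CPM in 2D, Nsdhl 17.9 ± 0.976 and 19.0 ± 1.37 CPM, and Dhcr7 23.9 ± 1.05 and 22.9 ± 1.49 CPM. The test of that difference between hairpins is the same as the difference of effects above.

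Acss2 rose in the fatty acid branch with shGFP, and averaged 11.1 ± 0.512 CPM in 3D and 5.68 ± 0.592 CPM in 2D (0.96 ± 0.08, adjusted p = 2.49e-08). Elovl6 had 73.7, 70.4, 76.8 and 78.7 CPM in 3D, against 39.7, 56.5, 48.3 and 57.8 CPM in 2D (0.58 ± 0.14, adjusted p = 0.00193). These were the genes of the branch that rose, as with shAnkrd35. Scd1 had 328, 313, 326 and 328 CPM in 3D, against 531, 490, 539 and 523 CPM in 2D (-0.69 ± 0.05, adjusted p = 4.31e-09). Acaca had 127, 117, 134 and 138 CPM in 3D, against 178, 167, 202 and 182 CPM in 2D (-0.50 ± 0.10, adjusted p = 0.000322). Fads1 had 250, 250, 260 and 264 CPM in 3D, against 348, 323, 373 and 348 CPM in 2D (-0.44 ± 0.06, adjusted p = 5.94e-06). In these 3 genes every 2D library was above every 3D library. Scd2 (-0.39), Fasn (-0.36) and Acly (-0.13) fell too. Fasn (-0.06) and Acly (0.02) did not pass with the trend on GC content and length removed, nor after quantile normalization Scd2 (0.01), Fasn (-0.18) and Acly (-0.04), nor Acly without replicate 2 of 3D shGFP (adjusted p = 0.0692). Elovl5 averaged 215 ± 4.51 CPM in 3D and 216 ± 3.90 CPM in 2D, which did not pass.

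**Figure D4:**
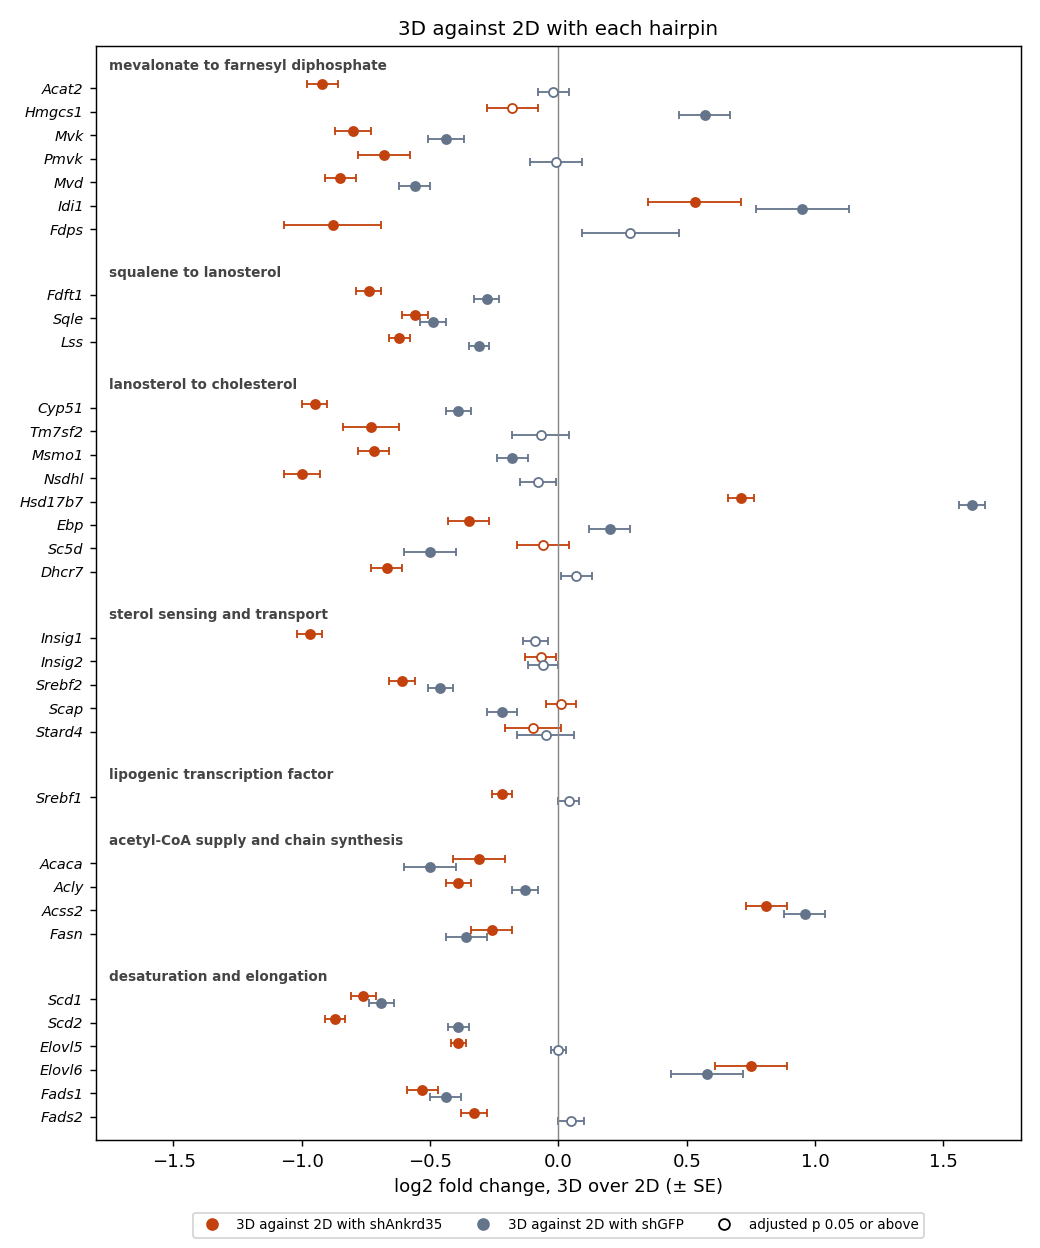
The log2 fold change of 3D over 2D for all 34 genes, with shAnkrd35 (orange) and with shGFP (grey), with SE bars; filled points passed an adjusted p of 0.05. With shAnkrd35 most genes lie left of 0 (median -0.67 in the sterol branch), with shGFP the sterol genes spread over both sides (median -0.08), and Hsd17b7, Idi1, Acss2 and Elovl6 lie right of 0 with both hairpins.

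Among the 5 regulators Insig1 had the largest hairpin folds. In 3D Insig1 had 35.5, 37.8, 37.8 and 34.2 CPM with shAnkrd35, against 47.8, 42.0, 45.3 and 43.0 CPM with shGFP; in 2D it had 73.2, 71.2, 69.3 and 70.2 CPM with shAnkrd35, against 47.2, 48.4, 46.1 and 47.8 CPM with shGFP. The shAnkrd35 libraries were thus the lowest in 3D and the highest in 2D, with no overlap in either. Insig2 had 31.3, 30.7, 35.0 and 32.2 CPM with shAnkrd35 in 3D, against 40.2, 37.5, 38.2 and 40.9 CPM with shGFP, lower as in 2D.

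Srebf2 had 454, 436, 442 and 453 CPM with shAnkrd35 in 3D, against 464, 457, 482 and 472 CPM with shGFP, and 755, 692, 640 and 637 CPM with shAnkrd35 in 2D, against 655, 601, 656 and 667 CPM with shGFP. It followed the type of growth, with every 3D library below every 2D library, and did not pass in either hairpin comparison. Srebf1 had 351, 346, 342 and 336 CPM with shAnkrd35 in 3D, against 360, 360, 363 and 354 CPM with shGFP, and 395, 422, 389 and 399 CPM with shAnkrd35 in 2D, against 355, 326, 354 and 367 CPM with shGFP. Its 2D shAnkrd35 libraries were the highest of the 16. Scap, the escort of SREBP, had 120, 112, 124 and 121 CPM with shAnkrd35 in 3D, against 105, 106, 108 and 108 CPM with shGFP, and 134, 119, 109 and 113 CPM with shAnkrd35 in 2D, against 124, 114, 135 and 125 CPM with shGFP; it was separate in 3D without passing the test (adjusted p = 0.0575) and overlapped in 2D. Stard4 passed in no comparison, its group means lying between 63.0 ± 5.80 and 72.1 ± 10.3 CPM.

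**Figure D5:**
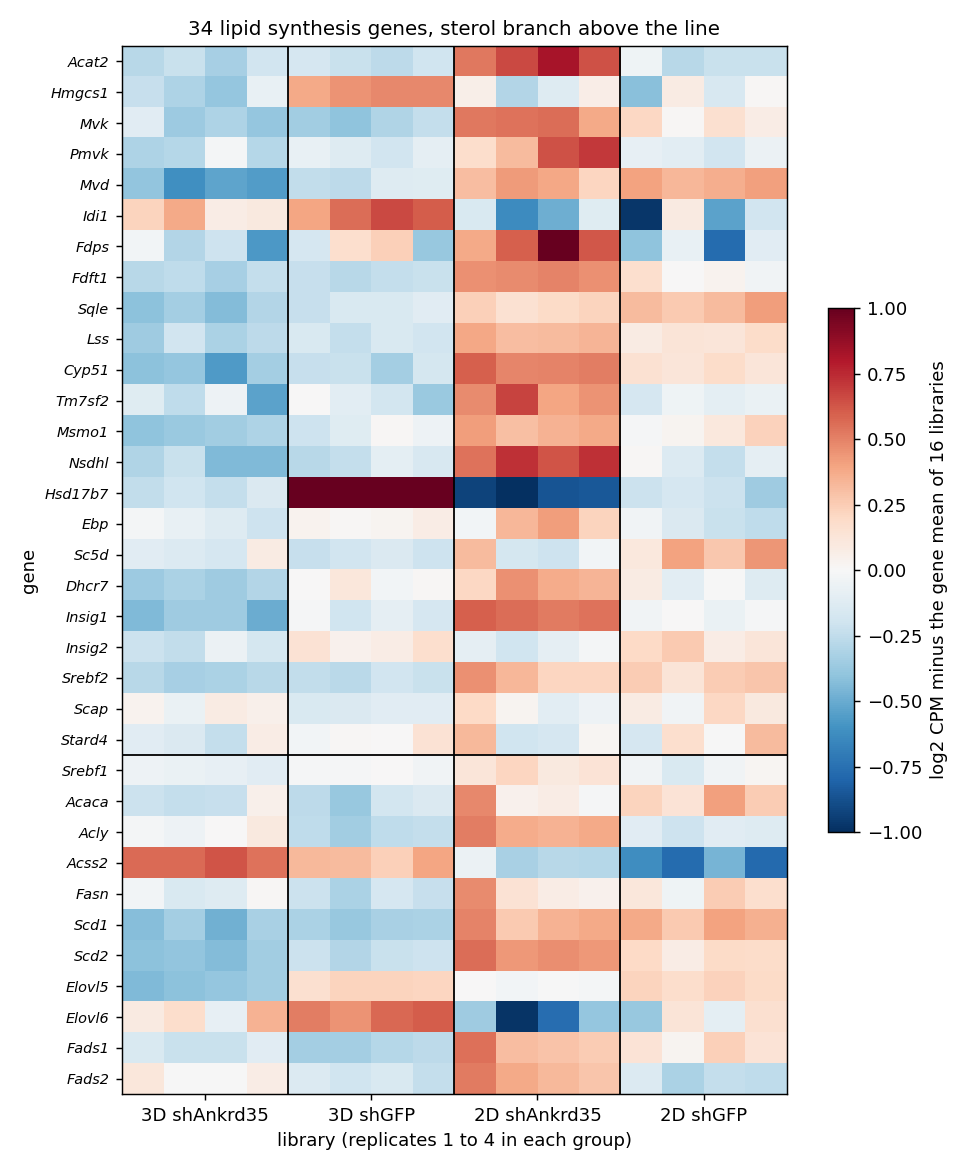
Log2 CPM of the 34 genes in the 16 libraries, each gene centred on its own mean; the colour scale ends at -1 and 1, which Hsd17b7 passes in the 3D shGFP libraries. The block of 2D shAnkrd35 is the highest for most sterol enzymes, and the block of 3D shAnkrd35 is low for most sterol genes. In the fatty acid branch 3D shAnkrd35 is the lowest for Srebf1, Scd1, Scd2 and Elovl5 and the highest for Acss2. The block of 3D shGFP is the lowest for Acaca, Acly, Fasn and Fads1.

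Genes around the pathway were read from 5 lists, with limma over all genes as before. The median over all genes was 0.00 in 3D and 0.01 in 2D. Of 12 genes of SREBP processing and turnover, 7 fell and 0 rose with shAnkrd35 in 3D (14.6% and 15.0% of all genes; median -0.16; 0 rose at an unadjusted p under 0.05, 0 with voom), and 9 fell and 0 rose in 2D (28.8% and 29.0% of all genes; median -0.20; 1 rose at an unadjusted p under 0.05, 0 with voom). Mbtps1, the protease that makes the first cut in SREBP, averaged 203 ± 6.80 CPM in shAnkrd35 and 244 ± 4.99 CPM in shGFP libraries of 3D (-0.27), and 256 ± 10.7 and 317 ± 12.5 CPM in 2D (-0.31). Erlin1, known to take part in holding back SREBP, averaged 49.1 ± 2.98 CPM in shAnkrd35 and 81.9 ± 2.5 CPM in shGFP libraries of 2D (-0.74). Erlin2, of the same list, averaged 52.4 ± 0.911 CPM in shAnkrd35 and 63.0 ± 1.21 CPM in shGFP libraries of 3D (-0.27). With the trend on GC content and length removed 4 fell and 1 rose in 3D, and 6 fell and 4 rose in 2D. In 3D the count was 4 lower without replicate 1 of 3D shAnkrd35 or replicate 4 of 3D shGFP.

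Of 14 genes of sterol transport, export and storage, 6 rose and 3 fell with shAnkrd35 in 3D (15.0% and 14.6% of all genes), and 6 rose and 2 fell in 2D (29.0% and 28.8%). With the trend on GC content and length removed 6 rose and 5 fell in 3D, and 6 rose and 4 fell in 2D. In 3D Abcg1, a cholesterol exporter, averaged 10.9 ± 0.943 CPM in shAnkrd35 and 6.19 ± 0.170 CPM in shGFP libraries (0.81 ± 0.12, adjusted p = 7.66e-05). Mylip, a ubiquitin ligase, averaged 12.1 ± 1.02 and 7.62 ± 0.789 CPM (0.66 ± 0.09, adjusted p = 1.78e-05). Both are known targets of the sterol-sensing LXR receptors, whose activity was not tested. Abcg1 rose in 2D as well (0.37), where Mylip (0.17) did not pass. Elsewhere in this list Abca1 rose in 3D (0.46) and in 2D (0.25), while Lpcat3 fell in 3D (-0.15) and rose in 2D (0.18). In 2D Gramd1a (0.54) rose and Gramd1b (-0.73) fell, both genes of proteins that move cholesterol from the plasma membrane to the endoplasmic reticulum.

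Of 14 genes that use isoprenoids to modify proteins or to make other products, 1 rose and 3 fell in 3D (15.0% and 14.6% of all genes), and 4 rose and 8 fell in 2D (29.0% and 28.8%). Apart from the falls in 2D these counts were near those shares, and with the trend on GC content and length removed 3 rose and 3 fell in 3D, and 4 rose and 6 fell in 2D. Icmt, the methyltransferase of prenylated proteins, fell in both (-0.23 in 3D, -0.37 in 2D), Fnta, a subunit of prenyl transferases, in 3D (-0.34) and Pggt1b, a subunit of geranylgeranyl transferase, in 2D (-1.10). Of 21 tested genes of fatty acid elongation, activation and glycerolipid synthesis, 6 rose and 5 fell in 3D (15.0% and 14.6% of all genes), and 7 rose and 4 fell in 2D (29.0% and 28.8%), the last 2 counts near or under the share of all genes. Dgat2, which makes triacylglycerol, averaged 17.4 ± 1.03 CPM in shAnkrd35 and 6.24 ± 0.972 CPM in shGFP libraries of 3D (1.48 ± 0.10, adjusted p = 1.74e-08), and Acacb, the mitochondrial acetyl-CoA carboxylase, 43.2 ± 2.30 and 27.4 ± 1.29 CPM (0.65). Dgat1 (0.45) and Mcat, of mitochondrial fatty acid synthesis (0.57), rose in 2D.

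Of 19 tested genes of fatty acid oxidation, 4 rose and 2 fell with shAnkrd35 in 3D (15.0% and 14.6% of all genes; median 0.05), counts near those shares. In 2D 15 rose and 1 fell (29.0% and 28.8% of all genes; median 0.29), or 12 and 2 with the trend on GC content and length removed. Acads, a short-chain acyl-CoA dehydrogenase, rose in both, at 83.0 ± 3.11 CPM in shAnkrd35 and 66.5 ± 2.71 CPM in shGFP libraries of 3D (0.32) and 100 ± 8.09 and 58.0 ± 3.07 CPM in 2D (0.79). Acadl, the long-chain enzyme, rose in 2D (0.54), and Echs1, an enoyl-CoA hydratase, fell in 3D (-0.53).

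Sums of markers of other cell types differed between some of the groups. The 5 fibroblast markers measured of 8 summed to 12.6 to 48.2 CPM in 3D shAnkrd35 libraries, against 25.3 to 29.0 in 3D shGFP libraries, a range within the first. In 2D they summed to 20.8 to 21.9 in shAnkrd35 libraries, against 31.8 to 34.6 in shGFP libraries. In 3D Col1a1 (7.99 against 2.52 CPM) and Col1a2 (4.17 against 0.938) averaged higher with shAnkrd35. Col3a1 (2.48 against 2.97), Pdgfra (0.99 against 1.59) and Pdgfrb (7.31 against 19.4) averaged lower. In 2D Col1a2 averaged higher (3.06 against 2.52) and the others lower. The 3 macrophage markers measured of 6, mostly Cd14, summed to 130 to 152 CPM against 116 to 124 in 3D and to 79.5 to 87.9 against 41.4 to 42.7 in 2D. Pparg, the 1 adipocyte marker measured of 6 and a regulator of lipid genes, had 67.9 to 73.6 CPM against 58.3 to 62.0 in 3D and 36.8 to 42.4 against 28.7 to 31.6 in 2D. The defining markers Ptprc, Adgre1, Csf1r, Adipoq and Plin1 and the 5 endothelial markers were not among the 12321 genes with values, so their levels are not known. The part of the markers in the results was not tested.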

How the data were processed

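RNA of LKR10 cells was sequenced after oligo(dT) selection and random-hexamer priming, per the labels' protocols. The submitters' processing notes name STAR 2.5.1b, Trimmomatic 0.38 and edgeR among the tools and mm10 as the genome build. How genes were counted, with which annotation and whether by strand is not given in the sources used here. The authors deposited log2 values in 16 library columns, with 0 columns of other samples. These are log2 CPM with a prior averaging 2 reads, from the values themselves, and removing it gave whole reads for 100% of values within 0.01 reads. CPM levels printed here are those reads over the effective library size of the deposited values, so folds, which keep the prior, understate changes of low genes.

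Genes with at least 1 CPM in at least 4 libraries were tested (12320, which leaves out Ankrd35) with limma 3.58.1 in R 4.3.3, with variance trend and robust moderation, on cell means of the 4 groups over 16 libraries and 5 contrasts. P-values were adjusted by Benjamini-Hochberg over all genes within a contrast; rose, fell, higher and lower of a tested gene mean an adjusted p under 0.05. The fit took 1 spread per gene over the 4 groups, so an SE in 3D also holds the spread of 2D libraries. The median SD of log2 values was 0.143 in 2D shAnkrd35, 0.105 in 2D shGFP, 0.096 in 3D shAnkrd35 and 0.07 in 3D shGFP. The design allowed for log2 values, so no pseudocount was added. The limma fit was tested on simulated counts with changes put into some genes of 2D shAnkrd35, for the hairpin comparison of 2D alone. That simulation had no GC trend and the same spread in every group, unlike the data. The other steps and comparisons were not tested so.

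Values in every library are given, per branch and comparison, for up to 3 called members each way without overlap by fold (by p for the difference of effects), and for 5 regulators; in the pathway lists the 2 called genes with the smallest p per hairpin comparison are named. Abca1 and Lpcat3 were named outside that rule. Members, lists and rules were chosen with earlier results of these data known. Exonic lengths, coordinates and overlaps come from GENCODE M21 (12218 symbols matched, 103 did not), promoters from RefSeq. Alternatives covered normalization, prior, filter, GC and length trend, voom, replicate block and leaving out libraries.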

Additional observations from a re-analysis of the deposited data

Results flagged for a closer look

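Of 136 groups of 4 libraries, 10 had a library whose gap to the nearest of the others passed Dixon's 95% critical value, where chance gives about 1 in 20 (6.8). In 2D shAnkrd35 it was replicate 1 for Acaca (212 CPM, against 151 to 160 in the others), Acly (509, against 454 to 463), Acss2 (8.56, against 7.13 to 7.37) and Fads1 (465, against 377 to 392). In 3D shAnkrd35 it was replicate 3 for Pmvk (14.2, against 11.6 to 11.8) and replicate 4 for Acaca (158, against 129 to 131). In 3D shGFP it was replicate 2 for Hsd17b7 (218, against 229 to 231) and Scd1 (313, against 326 to 328) and replicate 1 for Elovl5 (209, against 217 to 218), and in 2D shGFP replicate 2 for Scd2 (1920, against 2070 to 2090).

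For 23 of the 34 genes the hairpin effect differed between 3D and 2D in limma's test of the difference (adjusted p under 0.05). Over all genes it differed for 4407 of 12320 tested (18.6% lower in 3D, 17.1% higher). By branch the 23 were 18 of 23 sterol genes and 5 of 11 fatty acid genes. In log2 units, 3D minus 2D, the values were -1.17 for Fdps, -0.92 for Nsdhl, -0.90 for Acat2, -0.89 for Hsd17b7, -0.87 for Insig1, -0.75 for Hmgcs1, -0.74 for Dhcr7, -0.67 for Pmvk, -0.66 for Tm7sf2, -0.56 for Cyp51, -0.55 for Ebp, -0.54 for Msmo1, -0.46 for Fdft1, -0.36 for Mvk, -0.30 for Lss, -0.29 for Mvd, 0.23 for Scap and 0.44 for Sc5d in the sterol branch. In the fatty acid branch they were -0.48 for Scd2, -0.39 for Fads2, -0.38 for Elovl5, -0.26 for Acly and -0.26 for Srebf1.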

How the results depend on the processing

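The counts of called members stayed within 1.5 times their value under all 29 alternatives. Leaving out 1 library gave, for the sterol and the fatty acid branch, 9 to 10 and 4 to 8 with shAnkrd35 against shGFP in 3D, 16 to 18 and 8 to 9 in 2D, 18 to 19 and 11 in 3D against 2D with shAnkrd35, 12 to 14 and 7 to 8 with shGFP, and 16 to 19 and 5 to 6 for the difference of effects. The difference in Ankrd35 between shAnkrd35 and shGFP was -0.14 to -0.067 CPM in 3D and -0.078 to 0.014 CPM in 2D, above 0 without replicate 4 of 2D shAnkrd35 (0.014) or of 2D shGFP (0.013). Of 114 called folds of members 92 kept direction and call under every alternative that gave a value. In 3D against 2D, 4 changed sign: with the GC and length trend removed, alone or with the replicate block, Srebf1 with shAnkrd35 (0.06) and Scap (0.07) and Acly (0.02) with shGFP, and after quantile normalization Scd2 with shGFP (0.01); the cause was not tested.

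Deviations from group means of 24 same-numbered pairs of libraries correlated at -0.483 to 0.206 (median -0.014), 8 of them over 0.1. Such correlations cannot show whether libraries of equal number shared a culture or batch, which the labels do not give. Pairs with different numbers correlated at -0.352 to 0.555 (median -0.004). The highest was replicate 1 of 2D shGFP with replicate 2 of 2D shAnkrd35. What such libraries share was not tested. The replicate block left 17 of 18 sterol calls for the difference of effects, ending that of Scap (adjusted p = 0.0583), and changed no other count of members. Fdps and Ankrd35 had few reads in every library, and whether depth or the counting limits them was not tested.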
